A study of Danio rerio with 8 samples.

Results

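The genes described here encode the respiratory chain and the ATP synthase of mitochondria, measured in hearts of zebrafish larvae after sorafenib. Members were chosen by gene symbol. A gene belongs if its symbol starts with nduf, sdh, uqcr, cox4, cox5, cox6, cox7, cox8 or atp5, and cyc1 and slc25a4 were added. Of the zebrafish symbols in RefSeq, 111 met this rule, 76 of them had a probe named through a RefSeq accession, and 74 were measured, out of 8904 named genes and 21524 transcripts measured in all. The complex I genes ndufa12 and ndufs8b had only dim probes, above background on 2 arrays and on 1 array of 8.

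Hearts came from larvae at 4 days post-fertilization. The sorafenib group was kept in 1 uM sorafenib from 72 to 96 hours post-fertilization and the control group in the vehicle over the same hours, both in egg water. Each group has 4 samples, which the labels call independent experiments, each on its own one-colour Agilent array with Cy3-labelled RNA. Sorafenib is a multikinase inhibitor used against kidney, liver and thyroid cancer, which blocks RAF and the VEGF and PDGF receptors. The labels state no strain, vehicle or number of hearts per sample, so the spread between samples may be technical in part. Replicates 1 and 2 of both groups share a slide, and replicates 3 and 4 of both groups share another.

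The respiratory chain passes electrons from NADH (complex I) or succinate (complex II) through complex III to oxygen (complex IV) and pumps protons across the inner mitochondrial membrane. The ATP synthase, complex V, uses the proton gradient to make ATP, which the ADP/ATP carrier encoded by slc25a4 exports to the rest of the cell. Heart muscle is rich in mitochondria and depends on this pathway for contraction. Gene roles named here are those known for the mammalian counterparts. All members counted are encoded in the nucleus.

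A level is the log2 processed signal of a gene's brightest probe minus the 75th percentile of its array, so that 0 is that percentile and 1 unit is a 2-fold difference. Values per array are given in the order of replicates 1 to 4. Differences are sorafenib minus control with the standard error (SE) of limma, a linear model with a spread shared across transcripts. Adjusted p-values are Benjamini-Hochberg values over all 21524 transcripts, and a gene was called at an adjusted p under 0.05. The 75th percentile signal was 85.1 to 154.6 in sorafenib arrays and 96.0 to 153.2 in control arrays, and 55.0% to 59.5% of spots were well above background. All 74 members were well above background on all 8 arrays, and the number of arrays limits the precision.

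All 13 heart muscle markers measured were well above background on all 8 arrays, among them the cardiac myosin light chain genes myl7 and cmlc1. Markers of other tissues were measured as well. Of 19 neural markers with a probe, 0 lay at background on every array. Their summed signal was 126 to 310 times the 75th percentile signal in sorafenib arrays and 275 to 367 times in control arrays. Of 12 liver markers with a probe, likewise 0 lay at background on every array, with sums of 301 to 794 times in sorafenib arrays and 277 to 654 times in control arrays. The 13 skeletal muscle markers had the largest sums of the marker lists, 1254 to 1504 times in sorafenib arrays and 1247 to 1618 times in control arrays. Sums of the 13 heart muscle markers were 364 to 624 times in sorafenib arrays and 354 to 480 times in control arrays. Such sums depend on the genes listed, and the part of skeletal muscle RNA in the members' levels was not tested. Of 15 endothelial and endocardial markers with a probe, 11 were measured, while kdrl, cdh5 and flt1 were at background on every array. The sum over the 15 was 53 to 66 times in sorafenib arrays and 62 to 76 times in control arrays.

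Most respiratory chain and ATP synthase genes lay slightly higher in sorafenib hearts, and no member passed the test. Of 74 members, 65 (87.8%) had a log2 difference above 0, against 48.1% of all transcripts. Their median was +0.17, against -0.02 for all transcripts and +0.03 for the 5381 transcripts with the highest mean level, which hold 66 of the members. Single differences ran from -0.60 to +0.60 with a median SE of 0.23, and the 95% confidence interval covered 0 for 71 of 74. In limma 0 members were called (the background is 0% higher and 0% lower), and the smallest adjusted p was 0.573.

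At an unadjusted p under 0.05 limma held 1 member higher, against 4.16% of all transcripts, and 2 members lower, against 3.3%. In this fit these shares did not exceed the background. The 4 sorafenib values lay wholly above the 4 control values for 1 member, where 2.28% of all transcripts do so, and wholly below for 0 members, where 1.91% do. The higher one was ndufaf7, and the lower ones at an unadjusted p under 0.05 were slc25a4 and ndufa4l2a. On leaving out sorafenib replicate 2 or 3, or control replicate 1 or 3, 0 members were lower at that threshold. Of all transcripts 1.89% to 3.3% were then lower. Leaving out sorafenib replicate 4 brought the median to +0.34 and the count of members higher at an unadjusted p under 0.05 to 15, or 20.3%, where 9.36% of all transcripts were then higher at that threshold. Without sorafenib replicate 1 the median was +0.10, without sorafenib replicate 3 it was +0.08, and without control replicate 4 it was +0.10. Within slides the median was +0.17 on the first, with 69 members above 0, and +0.15 on the second, with 61 above 0. Scaling changed its size as well. Quantile normalization between arrays gave +0.10 with 60 members above 0. The authors' deposited log2 table gave +0.07 with 59 above 0, and there the median of complex IV was +0.02. With normexp background correction of the median signal and local background (offset 50) in place of the processed signal, the median was -0.42 and 4 members were above 0, while the 5381 transcripts with the highest level had a median of -0.53. When quantile normalization was added to normexp, the median of the members was +0.09 and 60 were above 0. At an unadjusted p under 0.05 limma then held 6 members (8.11%) higher, against 4.99% of all transcripts. In the deposited table it held 5 members (6.76%) higher, against 5%. With array weights it held 6 members (8.11%) higher, against 11.7%.

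**Figure D1:**
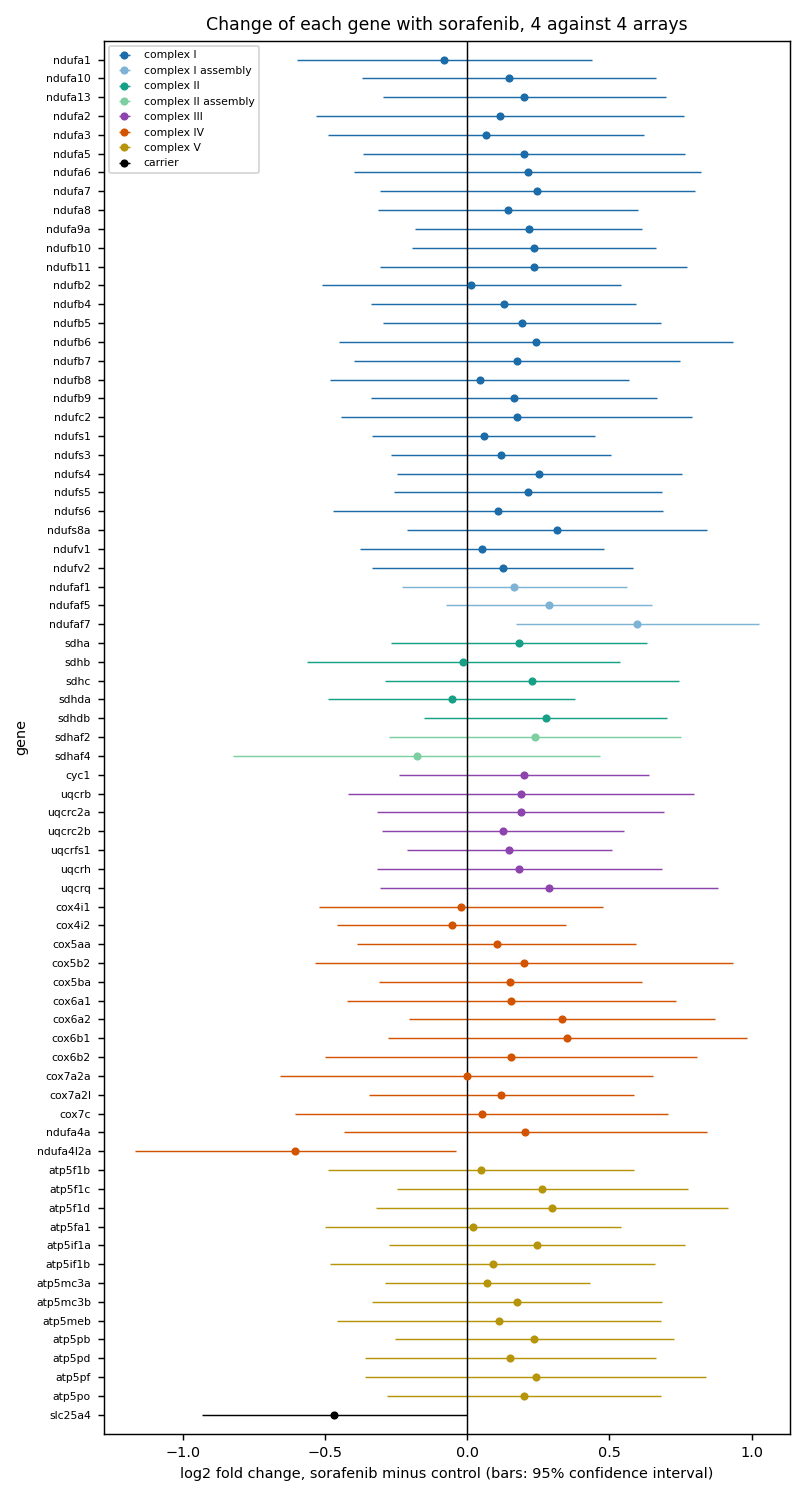
Log2 difference (sorafenib minus control, x axis) for 73 of the 74 genes (rows), coloured by complex, with points for the estimate and bars for the 95% confidence interval from limma, 4 arrays per group. Points to the right of 0 make up 64 of the 73 drawn, bars cover 0 for 70, and ndufaf7, ndufa4l2a and slc25a4 are the exceptions.

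The members moved together from array to array, and this spread exceeded the difference between the groups. With each gene set to its own mean over the 8 arrays, the mean of all members was 0.29, 0.13, 0.28 and -0.42 in sorafenib hearts, against 0.16, -0.06, -0.12 and -0.26 in control hearts. Sorafenib replicate 4 was thus the lowest array of all, sorafenib replicates 1 and 3 were above every control, and sorafenib replicate 2 was above every control but replicate 1. The mean was 0.07 ± 0.33 in sorafenib hearts and -0.07 ± 0.17 in control hearts (SD, n = 4 each). The difference of 0.14 is smaller than either SD. The 75th percentile signal used to scale each array was 85.1, 99.1, 98.8 and 154.6 in sorafenib arrays, against 105.2, 96.0, 153.2 and 116.0 in control arrays. It was thus highest in sorafenib replicate 4, the lowest array in the members, and lowest in sorafenib replicate 1, the highest. How far this scaling enters the pattern over arrays was not tested.

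The same arrays stood out gene by gene. Sorafenib replicate 4 was the lowest sorafenib array for 66 of 74 members (89.2%), against 42.1% of all transcripts. Control replicate 1 was the highest control array for 56 members (75.7%), against 34.5%, and control replicate 4 the lowest for 55 (74.3%), against 30.8%. The first principal component held 76.6% of the variance of the members over the 8 arrays and 41.7% of that of all transcripts. Genes of one array share its RNA, labelling and scaling, so these shares describe 8 arrays and not 74 separate observations.

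**Figure D2:**
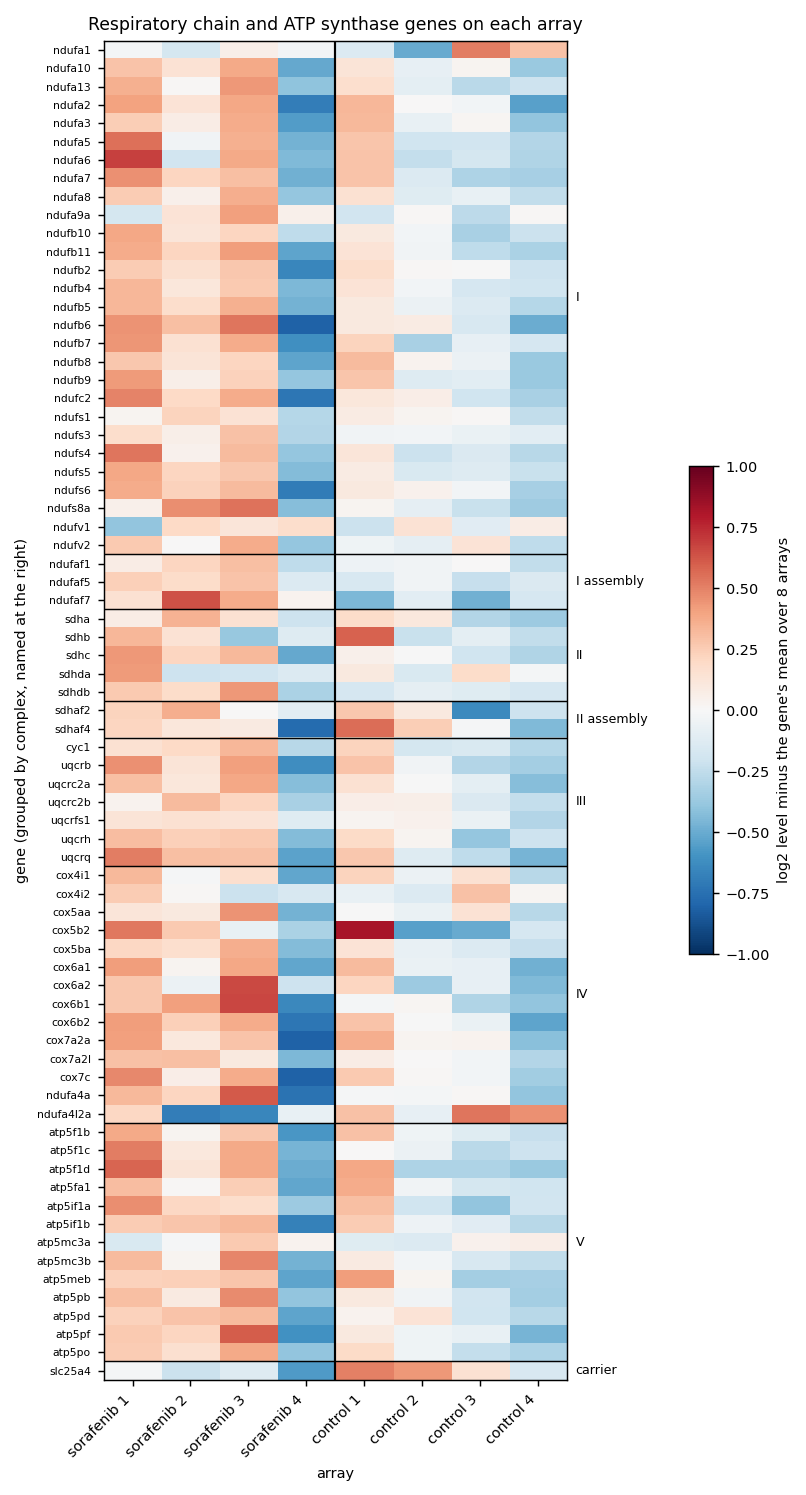
Log2 level of 73 of the 74 genes (rows, grouped by complex) on each of the 8 arrays (columns), minus the gene's own mean over the 8 arrays, with red above and blue below that mean. Sorafenib replicate 4 is the lowest sorafenib column in 65 of the 73 rows, while the row of slc25a4 is highest in control replicates 1 and 2.

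Complex by complex the arrays kept nearly the same order. Complex I, with 29 subunit genes, had mean centred levels of 0.29, 0.12, 0.32 and -0.43 in sorafenib hearts, against 0.13, -0.08, -0.11 and -0.25 in control hearts. Complex III, with 7 genes, had 0.27, 0.21, 0.29 and -0.39 in sorafenib hearts, against 0.17, -0.03, -0.20 and -0.32 in control hearts. Complex V, with 13 genes, had 0.30, 0.14, 0.35 and -0.46 in sorafenib hearts, against 0.19, -0.06, -0.20 and -0.26 in control hearts. In all of these sorafenib replicate 4 was the lowest array and control replicate 4 the lowest control. Complex IV, with 14 genes, had 0.32, 0.08, 0.25 and -0.49 in sorafenib hearts, against 0.21, -0.10, -0.00 and -0.27 in control hearts. Complex II, with 5 genes, had 0.30, 0.14, 0.07 and -0.26 in sorafenib hearts, against 0.15, -0.07, -0.11 and -0.22 in control hearts. For each of the 5 complexes the values of the groups overlapped.

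Markers of other cell types differed between the same arrays. The mean centred level of the 13 heart muscle markers was -0.02, 0.49, 0.68 and -0.30 in sorafenib hearts, against -0.20, 0.07, -0.15 and -0.56 in control hearts. That of the 12 liver markers was 0.25, 0.60, 1.17 and -0.46 in sorafenib hearts, against 0.20, -0.32, -0.83 and -0.62 in control hearts. In the heart muscle and liver lists, as in the members, replicate 4 was the lowest sorafenib array. Other arrays differed in order. Sorafenib replicate 1, the highest array in the members (0.29), had -0.02 in heart muscle markers. The lowest array of all was control replicate 4 in heart muscle markers and control replicate 3 in liver markers. The 19 neural markers ran the other way in sorafenib replicates 2 and 3, with 0.22, -0.84, -1.24 and 0.51 in sorafenib hearts, against 0.27, -0.04, 0.47 and 0.65 in control hearts.

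The 11 endothelial and endocardial markers had -0.15, -0.21, -0.23 and -0.31 in sorafenib hearts, against 0.23, 0.31, 0.19 and 0.17 in control hearts, the one list of these with no overlap. This list was chosen with earlier results of these data known, so its separation is a description and not a test. The markers kdrl, cdh5 and flt1, at background on every array, do not enter its mean. The 16 yolk and digestive tract markers had 0.00, 0.73, 1.84 and 0.02 in sorafenib hearts, against 1.27, -1.70, -1.03 and -1.12 in control hearts. The median difference was +0.45 for heart muscle (12 of 13 above 0), +0.73 for liver (12 of 12), -0.73 for neural (0 of 19), -0.59 for endothelial and endocardial (1 of 11) and +1.47 for yolk and digestive tract markers (15 of 16). Skeletal muscle markers (13 genes) had a median difference of -0.06 and erythroid markers (10 genes) one of +0.30, and in each marker list 0 genes were called in limma. In such bulk samples, fewer cells of a type and less RNA per cell cannot be told apart.

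With the neural and liver means of each array as covariates, the median difference of the members was -0.16 and 9 of 74 were above 0. In that fit all transcripts had a median of -0.05 and the 5381 with the highest mean level one of -0.11. Both marker lists differed between the groups themselves, with medians of -0.73 for neural and +0.73 for liver. This fit therefore cannot tell tissue from treatment. Sorafenib replicates 2 and 3 were the arrays lowest in neural markers and highest in heart muscle and liver markers. Without them the median of the members was +0.01 and 40 of 74 were above 0. All transcripts then had a median of -0.02 and the 5381 with the highest mean level one of -0.03. This leaves sorafenib replicate 1 and replicate 4, the lowest array of all in the members.

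**Figure D3:**
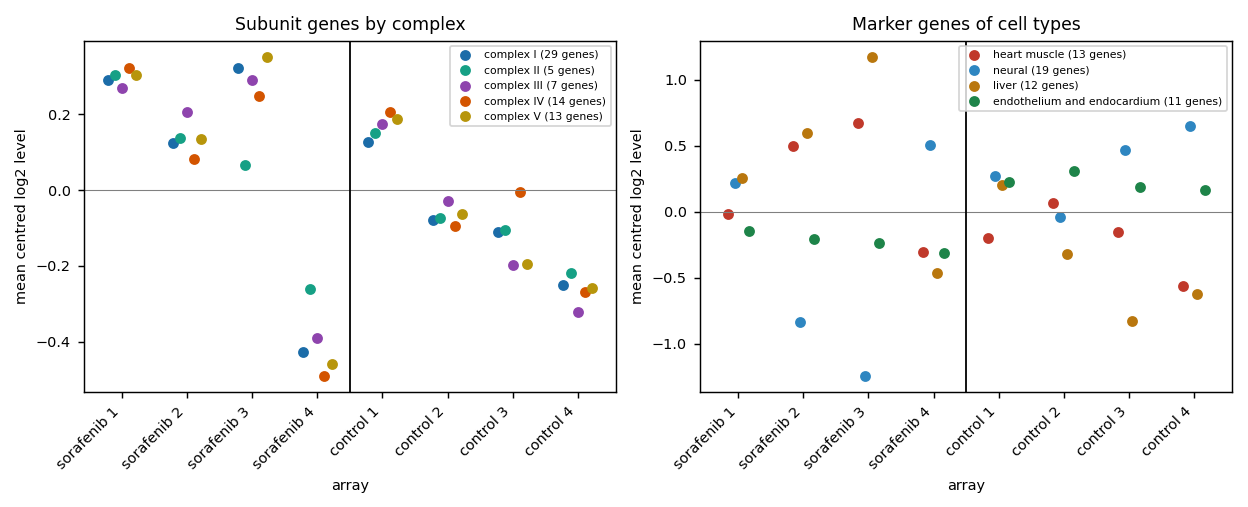
Mean centred log2 level on each array (x axis, sorafenib replicates 1 to 4 and then control replicates 1 to 4) of the subunit genes of each complex (left) and of marker genes of 4 cell types (right), each point being the mean over the genes named in the legend. The complexes range from 0.35 (complex V, sorafenib replicate 3) to -0.49 (complex IV, sorafenib replicate 4), while neural and liver markers spread from -1.24 to 1.17. Complex II lies apart from the others on these 2 arrays, at 0.07 and -0.26.

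Complex I oxidises NADH. Of its 29 measured subunit genes 28 lay above 0, with a median of +0.17, a range of -0.08 to +0.32 and 0 members at an unadjusted p under 0.05. The 2 with the highest mean signal were ndufs1 and ndufb8. The gene ndufs1 encodes the large iron-sulfur subunit of the electron input module. Its level was 6.45, 6.65, 6.57 and 6.14 in sorafenib hearts, against 6.50, 6.45, 6.44 and 6.18 in control hearts. Its difference was +0.06 ± 0.17 (SE). Sorafenib replicates 2 and 3 lay above all controls and replicate 4 below them, so the groups overlapped. The gene ndufb8 encodes an accessory subunit of the membrane arm, with a level of 6.60, 6.46, 6.54 and 5.80 in sorafenib hearts, against 6.64, 6.36, 6.27 and 5.95 in control hearts. Sorafenib replicate 4 was the lowest array, and the difference was +0.04 ± 0.23.

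The largest complex I difference was that of ndufs8a, for an iron-sulfur subunit that passes electrons towards quinone. Its level was 2.97, 3.38, 3.46 and 2.49 in sorafenib hearts, against 2.95, 2.83, 2.70 and 2.57 in control hearts. Replicates 1 to 3 of the sorafenib group lay above all controls and replicate 4 below them, and the difference was +0.32 ± 0.23 (limma adjusted p = 0.730). The one complex I gene below 0 was ndufa1, for a small membrane subunit needed for assembly. It had -3.11, -3.27, -3.04 and -3.13 in sorafenib hearts, against -3.23, -3.60, -2.59 and -2.80 in control hearts. The control values enclosed all sorafenib values, and the difference was -0.08 ± 0.23.

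Assembly factors of complex I help to build it and are not part of the finished enzyme. The 3 measured had a median of +0.29. The gene ndufaf7 encodes a methyltransferase needed to assemble the complex. It had -2.89, -2.41, -2.67 and -3.01 in sorafenib hearts, against -3.49, -3.14, -3.52 and -3.21 in control hearts, so that all 4 sorafenib values were above all controls. The difference was +0.60 ± 0.19 in limma, or 1.51-fold, with an unadjusted p of 0.0113 and an adjusted p of 0.573. It was +0.67 on the first slide and +0.53 on the second. A second probe of the gene gave +0.33, the authors' deposited log2 table +0.03, and normexp with quantile normalization +0.10. The other 2 factors, ndufaf5 and ndufaf1, had +0.29 ± 0.16 and +0.17 ± 0.17 (SE).

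Complex II, succinate dehydrogenase, links the tricarboxylic acid cycle to the chain. Of 5 genes 3 lay above 0, with a median of +0.18. The gene sdha, for the flavoprotein that oxidises succinate, had 5.39, 5.67, 5.47 and 5.11 in sorafenib hearts, against 5.51, 5.42, 5.03 and 4.96 in control hearts. Its brightest probe gave +0.18 ± 0.20, while its 4 probes ranged from -0.16 to +0.18, and with the mean of all probes the difference was -0.03. The iron-sulfur subunit gene sdhb had a difference of -0.01 ± 0.24.

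The other genes of complex II encode its membrane anchors. The gene sdhc had 5.96, 5.75, 5.85 and 5.02 in sorafenib hearts, against 5.58, 5.53, 5.33 and 5.23 in control hearts. Here 3 sorafenib arrays lay above all controls and replicate 4 below them, with a difference of +0.23 ± 0.23. The gene sdhdb had 3.09, 3.01, 3.26 and 2.51 in sorafenib hearts, against 2.66, 2.74, 2.70 and 2.66 in control hearts, the same layout. Its difference was +0.28 ± 0.19 (limma adjusted p = 0.713). Its paralog sdhda had -2.11, -2.74, -2.73 and -2.67 in sorafenib hearts, against -2.44, -2.69, -2.35 and -2.55 in control hearts, with sorafenib replicate 1 above every other array and a difference of -0.06 ± 0.19. The 2 assembly factors pointed apart, sdhaf2 at +0.24 ± 0.23 and sdhaf4 at -0.18 ± 0.29.

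Complex III passes electrons from ubiquinol to cytochrome c. All 7 genes measured lay above 0, with a median of +0.19 and a range of +0.13 to +0.29. The gene cyc1, for cytochrome c1, had 5.92, 5.97, 6.10 and 5.49 in sorafenib hearts, against 5.99, 5.59, 5.62 and 5.49 in control hearts. Sorafenib replicates 1 to 3 were above at least 3 of the 4 controls, and the difference was +0.20 ± 0.19 (limma adjusted p = 0.792). The largest difference in the complex was that of uqcrq, for a small subunit near the ubiquinone site. Its level was 5.89, 5.68, 5.67 and 4.83 in sorafenib hearts, against 5.64, 5.25, 5.12 and 4.91 in control hearts, a difference of +0.29 ± 0.26. Again 3 sorafenib arrays lay above all controls and replicate 4 below them.

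The core protein genes uqcrc2a and uqcrc2b are paralogs. The level of uqcrc2a was 5.93, 5.75, 6.02 and 5.20 in sorafenib hearts, against 5.79, 5.63, 5.53 and 5.21 in control hearts. Its partner uqcrc2b had 5.15, 5.44, 5.33 and 4.79 in sorafenib hearts, against 5.19, 5.18, 4.97 and 4.88 in control hearts. The differences were +0.19 ± 0.22 for uqcrc2a and +0.13 ± 0.19 for uqcrc2b, and in both the groups overlapped. The gene for the Rieske iron-sulfur protein, uqcrfs1, had +0.15 ± 0.16.

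Complex IV, cytochrome c oxidase, reduces oxygen. Of 14 genes 10 lay above 0, with a median of +0.14 and a range of -0.60 to +0.35. The 2 genes with the highest mean signal were cox7c, for a small membrane subunit, and cox4i1, for the regulatory subunit that binds ATP. The level of cox7c was 7.47, 7.06, 7.36 and 6.18 in sorafenib hearts, against 7.26, 7.0, 6.96 and 6.64 in control hearts, a difference of +0.05 ± 0.29. That of cox4i1 was 7.28, 6.93, 7.12 and 6.43 in sorafenib hearts, against 7.17, 6.89, 7.10 and 6.67 in control hearts, a difference of -0.02 ± 0.22. Both had their lowest value in sorafenib replicate 4. The largest positive difference was that of cox6b1, for a subunit at the dimer interface, with 4.73, 4.87, 5.12 and 3.81 in sorafenib hearts, against 4.44, 4.48, 4.15 and 4.06 in control hearts. Replicates 1 to 3 of the sorafenib group lay above all controls, and the difference was +0.35 ± 0.28 (limma adjusted p = 0.750).

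The lowest complex IV difference was that of ndufa4l2a. Its mammalian counterpart is a relative of the NDUFA4 subunit that is induced in low oxygen. The level was 0.36, -0.54, -0.50 and 0.08 in sorafenib hearts, against 0.45, 0.07, 0.69 and 0.61 in control hearts. The groups overlapped, since sorafenib replicates 1 and 4 were above control replicate 2, and the 2 lowest values were those of sorafenib replicates 2 and 3. The difference was -0.60 ± 0.25 in limma, with an unadjusted p of 0.0381 and an adjusted p of 0.660. It was -0.35 on the first slide, -0.86 on the second and -0.23 without sorafenib replicates 2 and 3, the arrays with the lowest neural and highest liver marker levels. The part of those tissues in the value was not tested. The related gene ndufa4a, counted with complex IV as NDUFA4 is in mammals, had +0.20 ± 0.28.

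Several complex IV subunits come in isoforms. In mammals cox6a1 is the widely used and cox6a2 the heart and skeletal muscle form. In these hearts cox6a2 had 1.24, 0.91, 1.63 and 0.76 with sorafenib, against 1.18, 0.60, 0.89 and 0.53 in controls, a difference of +0.33 ± 0.24. The level of cox6a1 was 6.17, 5.78, 6.14 and 5.24 in sorafenib hearts, against 6.07, 5.69, 5.67 and 5.27 in control hearts, a difference of +0.16 ± 0.26. Both isoforms had overlapping groups. The gene cox4i2, whose mammalian form is used in lung and low oxygen, had 1.11, 0.86, 0.63 and 0.69 in sorafenib hearts, against 0.78, 0.72, 1.15 and 0.87 in control hearts, a difference of -0.05 ± 0.18. The gene cox6b2 had 6.96, 6.78, 6.91 and 5.82 in sorafenib hearts, against 6.83, 6.54, 6.48 and 6.02 in control hearts, a difference of +0.15 ± 0.29. In neither did the groups separate.

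The gene cox7a2l, whose mammalian counterpart helps to join complexes III and IV, had 4.99, 4.99, 4.79 and 4.25 in sorafenib hearts, against 4.77, 4.70, 4.67 and 4.40 in control hearts. Its relative cox7a2a, for the subunit itself, had 6.74, 6.43, 6.62 and 5.53 in sorafenib hearts, against 6.70, 6.35, 6.36 and 5.91 in control hearts. Their differences were +0.12 ± 0.21 for cox7a2l and -0.00 ± 0.29 for cox7a2a, and sorafenib replicate 4 was the lowest array for both.

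Complex V makes ATP. All 13 genes measured lay above 0, with a median of +0.18, a range of +0.02 to +0.30 and 0 at an unadjusted p under 0.05. The catalytic beta subunit gene atp5f1b had 8.21, 7.85, 8.09 and 7.24 in sorafenib hearts, against 8.12, 7.78, 7.70 and 7.60 in control hearts, a difference of +0.05 ± 0.24. The alpha subunit gene atp5fa1 had 7.61, 7.31, 7.55 and 6.78 in sorafenib hearts, against 7.67, 7.27, 7.12 and 7.10 in control hearts, a difference of +0.02 ± 0.23. These 2 genes had the highest mean signal of the complex. In both the groups overlapped, with sorafenib replicate 4 below all controls. The largest difference was that of atp5f1d, for the delta subunit of the central stalk, with 6.96, 6.50, 6.75 and 5.88 in sorafenib hearts, against 6.76, 6.06, 6.07 and 6.0 in control hearts. Its control replicate 1 lay apart from the other controls, and the difference was +0.30 ± 0.27 (limma adjusted p = 0.775). The gamma subunit gene atp5f1c had +0.26 ± 0.23, and the peripheral stalk genes atp5pb, atp5pd, atp5pf and atp5po had +0.24, +0.15, +0.24 and +0.20.

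The inhibitor protein encoded by atp5if1 stops the enzyme from running backwards and has 2 zebrafish genes. The level of atp5if1a was 7.05, 6.79, 6.76 and 6.21 in sorafenib hearts, against 6.88, 6.38, 6.18 and 6.39 in control hearts, a difference of +0.25 ± 0.23. That of atp5if1b was 4.96, 4.98, 5.03 and 4.03 in sorafenib hearts, against 4.97, 4.66, 4.60 and 4.44 in control hearts, a difference of +0.09 ± 0.25. Sorafenib replicate 4 was the lowest sorafenib array for both. The ring subunit gene atp5mc3b had 7.16, 6.87, 7.33 and 6.37 in sorafenib hearts, against 6.93, 6.82, 6.68 and 6.59 in control hearts. Its paralog atp5mc3a had 3.08, 3.22, 3.49 and 3.27 in sorafenib hearts, against 3.11, 3.10, 3.27 and 3.30 in control hearts. For atp5mc3b the lowest array was sorafenib replicate 4, while for atp5mc3a it was sorafenib replicate 1, and the differences were +0.18 ± 0.23 and +0.07 ± 0.16.

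The changes of 8 pairs of related genes were compared with each other, by a two-sided exact permutation test of the log2 ratio of each pair over the 8 arrays. The lowest p was 0.2, for cox6b1 against cox6b2 (differences of +0.35 and +0.15), and its Benjamini-Hochberg value over the 8 pairs was 0.571. The widest gap between changes was that of sdhda and sdhdb, at -0.33, with an exact p of 0.229. All 8 pairs had overlapping groups in their ratio. Probes of related genes can share sequence, and how far each probe binds its gene alone was not tested.

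The carrier gene slc25a4 differed in sign from most members. In mammals it encodes the main ADP/ATP carrier of heart and skeletal muscle. Its level was 6.36, 6.16, 6.24 and 5.81 in sorafenib hearts, against 6.88, 6.81, 6.53 and 6.22 in control hearts. Sorafenib replicates 1 and 3 lay just above control replicate 4, so the groups overlapped by that control alone. The mean was 6.14 ± 0.24 in sorafenib hearts and 6.61 ± 0.30 in control hearts (SD, n = 4 each). The limma difference was -0.47 ± 0.21 (SE), a ratio of 0.723, with an unadjusted p of 0.0495 and an adjusted p of 0.661. Within slides it was -0.59 on the first and -0.35 on the second, and it ranged from -0.60 to -0.36 when any single array was left out. With normexp background correction, where the median of the members was -0.42, it was -1.04, and -0.65 relative to the mean of the other members.

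Since the other members moved together between arrays, slc25a4 was also set against the mean of the other 73 on each array, a measure added after its values were seen and given without a test. Relative to them, and centred on its mean, it was -0.31, -0.36, -0.42 and -0.15 in sorafenib hearts, against 0.35, 0.50, 0.28 and 0.10 in control hearts. The groups did not overlap, and the difference was -0.62. It was the one member of 74 for which each sorafenib array was lower than every control array on this measure, where 2.07% of all transcripts were, and 0 members were higher, where 1.48% were. One in 74 is near the background, so the count says nothing particular about the members. The relative difference was -0.76 on the first slide and -0.47 on the second, its extremes over the alternatives run, and was -0.54 without sorafenib replicates 2 and 3.

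**Figure D4:**
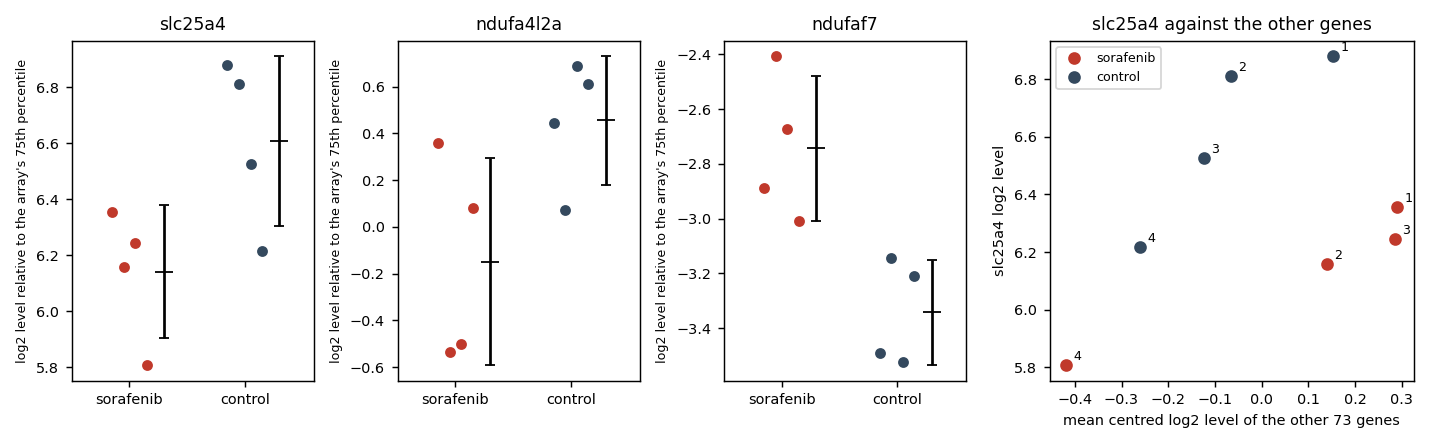
Log2 level relative to the array's 75th percentile of slc25a4, ndufa4l2a and ndufaf7 on each array (points) with mean and SD (bars, n = 4 per group), and, at the right, the slc25a4 level against the mean centred level of the other 73 genes, with replicate numbers. In the right panel sorafenib replicate 2 and control replicate 1 have like levels of the other genes (0.14 and 0.15), with slc25a4 at 6.16 and 6.88. In the other genes sorafenib replicates 1 and 3 (0.29 each) lie above all controls and replicate 4 (-0.42) below them, so these have no like control. Control replicate 4, at 6.22, is the control within the range of the sorafenib levels of slc25a4.

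Other genes of mitochondrial energy supply, described as lists, gave 0 called genes in limma, with smallest adjusted p-values of 0.625 to 0.674. Cytochrome c and coenzyme Q genes had a median of +0.17, with 12 of 14 above 0, 1 higher at an unadjusted p under 0.05 and 0 lower. That gene was coq6, for a hydroxylase of coenzyme Q synthesis, with 3.05, 3.05, 3.04 and 2.73 in sorafenib hearts, against 2.71, 2.56, 2.24 and 2.35 in control hearts. Its groups did not overlap, and its difference was +0.50 ± 0.17 (limma adjusted p = 0.625). Of all transcripts 48.1% lay above 0, and 2.28% had all sorafenib values above all controls. At an unadjusted p under 0.05 limma held 4.16% higher and 3.3% lower. The few such genes in these short lists were not tested against those shares.

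Assembly factors outside the symbol rule had a median of +0.07, with 16 of 25 above 0. Of these 25, 2 were higher at an unadjusted p under 0.05, against 4.16% of all transcripts. One was taco1, an activator of translation of a mitochondrial complex IV subunit, with 2.46, 2.54, 2.74 and 2.27 in sorafenib hearts, against 2.09, 2.14, 2.08 and 2.14 in control hearts. The other was lyrm7, a chaperone of the Rieske protein, with 2.66, 2.66, 2.70 and 2.07 in sorafenib hearts, against 2.31, 2.08, 1.63 and 1.93 in control hearts. The taco1 groups did not overlap while those of lyrm7 did, and the differences were +0.40 ± 0.16 for taco1 and +0.53 ± 0.22 for lyrm7 (limma adjusted p = 0.656 for each).

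Lists around the chain were closer to the median of all transcripts. Tricarboxylic acid cycle and pyruvate dehydrogenase genes had a median of +0.06 (13 of 22 above 0), carriers, porins and creatine kinases +0.03 (10 of 14, the gene ckma being also a skeletal muscle marker), and mitochondrial fatty acid oxidation +0.10 (12 of 16), each with 0 genes at an unadjusted p under 0.05. Below 0 lay the 13 regulators of mitochondrial genes, with a median of -0.13 and 3 above 0, and the 27 glycolysis genes, with a median of -0.12 and 9 above 0. One regulator had an unadjusted p under 0.05, gabpa, for a subunit of a transcription factor of respiratory chain genes. It had 2.24, 1.90, 2.11 and 1.92 in sorafenib hearts, against 2.93, 2.50, 2.58 and 2.13 in control hearts. The groups overlapped at control replicate 4, and the difference was -0.49 ± 0.20 (limma adjusted p = 0.656).

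In glycolysis the gene with an unadjusted p under 0.05 was pklr, for the liver and red cell pyruvate kinase. It had 3.96, 4.64, 4.48 and 3.49 in sorafenib hearts, against 4.04, 2.93, 2.57 and 3.36 in control hearts, a difference of +0.92 ± 0.36 (limma adjusted p = 0.653). Sorafenib replicates 2 and 3, the highest here, were also the highest arrays in liver markers, and the part of liver RNA in the value was not tested.

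**Figure D5:**
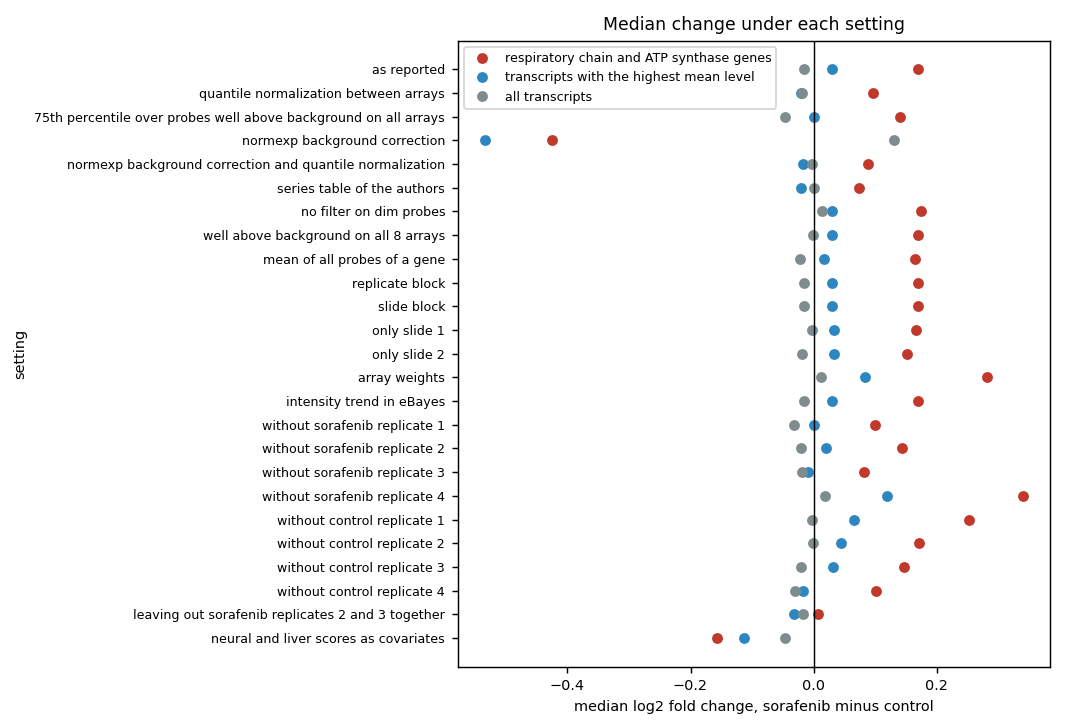
Median log2 difference (sorafenib minus control, x axis) under each alternative (rows) of the respiratory chain and ATP synthase genes (red), of the 5381 transcripts with the highest mean level (blue) and of all transcripts (grey). The median of the members was +0.17 as reported, lay above 0 in all rows but normexp background correction (-0.42) and the marker covariates (-0.16), and was highest without sorafenib replicate 4 (+0.34).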

How the data were processed

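RNA of 8 heart samples was hybridised to one-colour Agilent arrays. Spots were read with Feature Extraction, version 10.1.1.1 per the file headers and version 8.0 in the submitters' processing notes. The scanner files deposited by the authors hold linear spot intensity, already background-subtracted, with no normalization between arrays. A table deposited by the authors holds log2 values of 21383 probes, and its column medians were 7.20 to 7.22. All columns ran between 5.66 and 16.60, and once sorted they differed by at most 0.44. Each column matched its own array best, which sets scale and direction. The columns thus share nearly the same distribution, as values scaled to each other between arrays would. The steps used and any centring stay unknown here, and the table served as an alternative only.

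Control spots and 5 to 15 outlier spots per array were dropped, none being saturated (0 spots), and a probe's spots were averaged. Of 43603 probes, 15163 were named, through RefSeq accessions and a gene table of assembly GRCz12tu, used for names only because the file headers give build danRer5. The brightest probe stood for each of 10536 genes, and unnamed probes stayed single. Transcripts well above background on at least 4 of 8 arrays entered limma 3.58.1 (R 4.3.3) on log2 processed signal minus the array's 75th percentile, without covariates, tested on simulated data. Genes described singly are those at an unadjusted p under 0.05, the 2 with the highest mean signal, the highest and the lowest difference of each complex, paralog pairs, cyc1 and slc25a4, and up to 4 genes of each other list at an unadjusted p under 0.05. Further genes given with a difference alone were named after their values were seen. Members and lists were chosen with earlier results of these data known. The alternatives were other scalings, normexp (on the median signal, as no mean signal was at hand, with local background and an offset of 50), other filters, probes and blocks, single slides, array weights, marker covariates and left-out arrays. Of the members, 1 counts in the totals and is not reported here by itself.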

Additional observations from a re-analysis of the deposited data

Results flagged for a closer look

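In 54 groups of 4 arrays checked (21 genes named by rule, the means of the 5 complexes and the mean of all members, each in both treatments), 3 had an array whose gap to its nearest neighbour exceeded Dixon's 95% critical value as a share of the group's range. Chance flags about 1 in 20 such groups. For sdhda, sorafenib replicate 1 had a log2 level of -2.11, where the other 3 sorafenib arrays had -2.74 to -2.67. For atp5f1d, control replicate 1 had 6.76, where the other controls had 6.0 to 6.07. The mean of the complex III genes was -0.39 in sorafenib replicate 4, where the other sorafenib arrays had 0.21 to 0.29.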

How the results depend on the processing

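In all settings with a test 0 members were called by limma. The setting changed the count of all transcripts called, from 0 higher and 0 lower, to 2 higher with quantile normalization, 2 higher and 2 lower with normexp and quantile normalization (chosen after seeing the data), 3 higher and 4 lower in the authors' deposited log2 table, and 26 higher and 22 lower with array weights. Leaving out 1 array gave 0 to 1 higher and 0 lower. The median of the members was then +0.08 to +0.34, of complex I +0.08 to +0.36, of complex II +0.09 to +0.28, of complex III +0.11 to +0.36, of complex IV +0.03 to +0.33 and of complex V +0.07 to +0.36. Across single arrays left out, ndufs1 ranged from -0.013 to +0.16, ndufb8 from -0.074 to +0.23, ndufa1 from -0.26 to +0.076, sdhda from -0.20 to 0.0041, cox7c from -0.10 to +0.33, cox4i1 from -0.13 to +0.15, atp5f1b from -0.070 to +0.25 and atp5fa1 from -0.078 to +0.20. Replicate and slide blocks hold both groups equally, so they cannot change a difference, and the median of the members stays +0.17. They change only the spread and the p-values. With a replicate block 0 members were called, and limma gave slc25a4 an adjusted p of 0.345. At an unadjusted p under 0.05 limma then held 6.6% of all transcripts higher and 6.76% lower, with 1 member higher and 2 lower. Same-numbered samples had deviations with r of 0.27, 0.42, 0.04 and 0.70, and 3 of the 4 sorafenib samples matched their own number best. The main fit did not take the numbers as pairs. Whether same-numbered samples share more than a slide was not tested.

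Signs turned as follows. With normexp the members had a median of -0.42, complex I -0.46, complex II -0.35, complex III -0.43, complex IV -0.40 and complex V -0.33, as the 5381 transcripts with the highest level had -0.53 and all transcripts +0.13. There cyc1 was at -0.34, ndufs1 -0.46, ndufb8 -0.53, ndufs8a -0.34, ndufa1 +0.41, sdhc -0.35, sdha -0.38, sdhdb -0.23, sdhda +0.42, uqcrc2a -0.42, uqcrq -0.43, uqcrc2b -0.49, cox7c -0.52, cox6b1 -0.36, atp5f1b -0.41, atp5fa1 -0.45 and atp5f1d -0.30. With the neural and liver covariates the members had -0.16, complex I -0.15, complex II -0.084, complex III -0.13, complex IV -0.22 and complex V -0.19. The 5381 transcripts with the highest level then had -0.11 and all transcripts -0.05. Without sorafenib replicates 2 and 3 complex IV had -0.055, complex V -0.021, ndufs1 -0.098, ndufb8 -0.11, ndufs8a -0.028, sdhda +0.11, uqcrc2b -0.079, cox7c -0.14, cox6b1 -0.011, atp5f1b -0.077 and atp5fa1 -0.096. Quantile normalization gave ndufb8 -0.034, sdhda 0.0014, cox7c -0.046, atp5f1b -0.0045 and atp5fa1 -0.063. Normexp with quantile normalization gave the members a median of +0.09, with 60 of 74 above 0. Single genes that turned there were ndufb8 at -0.036, sdhda +0.0098, cox7c -0.043 and atp5fa1 -0.027. The deposited table gave ndufs1 -0.052, ndufb8 -0.10, sdhda +0.023, cox7c -0.044 and atp5fa1 -0.060. The percentile over detected probes gave atp5fa1 -0.0086, and the mean of all probes gave complex II -0.013 and sdha -0.027. The first slide alone gave ndufa1 +0.23, sdhda +0.14, cox4i1 +0.072 and atp5fa1 -0.010, the second gave cox7c -0.032, and array weights gave cox4i1 +0.029. The cause of these turns was not tested. In this family of 21 genes 18 turned sign in at least 1 setting run for single genes, and slc25a4, ndufa4l2a and ndufaf7 in none of these, which do not include the marker covariates. These 3 genes were named for an unadjusted limma p under 0.05 on the same arrays. Their constant sign follows in part from that choice and gives them no support. The gene ndufaf7 had +0.60 as reported, +0.03 in the deposited table and +0.10 with normexp and quantile normalization.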
